A study of Mus musculus with 6 samples.

Results

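This account follows 40 genes of the lysosome, of the proton pump that acidifies it and of autophagy in mammary organoids induced to lose Erbb3. The genes were listed by name and grouped by known role, with earlier results of these data known. They were 14 pump subunits, 13 proteins of the lysosome's interior, 3 membrane proteins, 2 transcription factors and 8 autophagy genes. All 40 were measured, out of 19937 genes on the array. A probe set is the group of array probes that reads 1 gene, and where a gene has several, the one with the highest mean stands for it.

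Organoids, clumps of epithelium released from the gland by digestion and cultured in gelled basement membrane, came from female FVB mice of matched age. All carried the ErbB3 DOX-KO genotype, in which the drug doxycycline (DOX) switches on the deletion of Erbb3. The 3 control cultures received no drug, and the 3 DOX cultures received 5 µM. Controls and DOX cultures alike were kept for 14 days. RNA from each culture was read on 1 Affymetrix array, and values are log2 expression. The series describes 3 biological replicates, and the labels do not say whether each came from another mouse, so the spread may in part be technical. They also do not give the animals' age in numbers, the deleted exons or the promoter that drives the deletion. The arrays hold no group given doxycycline without the genotype, so the drug and the deletion cannot be told apart.

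Lysosomes break down material delivered by endocytosis and autophagy, with hydrolases that work at the low pH made by the vacuolar proton pump. The pump has a membrane sector, V0, which carries protons, and a cytosolic sector, V1, which splits ATP. In autophagy, a growing membrane coated with LC3 and GABARAP proteins encloses cargo and fuses with the lysosome. The transcription factors TFEB and TFE3 enter the nucleus when mTORC1, a nutrient-sensing kinase on the lysosome surface, is less active, and they bind CACGTG-type elements at many of these genes. In the mammary gland, lysosomes take part in the clearance of milk-producing cells after weaning.

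DOX replicate 2 stood apart before any gene was compared. Its correlation with the other arrays across genes was 0.816 to 0.865, against at least 0.963 among the other 5, and genes in the highest 10% step of control levels had a median difference from the control mean of −1.59 there. Of the 40 genes, 24 lie in that step. The tests were therefore run with all 6 arrays and again without that array, where 2 DOX arrays remain. Of the 40 genes, 26 had the same sign in both, and no difference given without DOX replicate 2 passed with all arrays unless that is stated. Erbb3 was not lower in the DOX arrays. Its difference was 0.10 with all arrays (limma adjusted p = 0.845). Once DOX replicate 2 was left out it was 0.37 (limma adjusted p = 0.105), so its level does not check the labels. Of 7 luminal epithelial markers, 6 had control means above the median gene at 5.93, among them Krt8 (12.52), Krt18 (12.64) and Epcam (11.56), and Krt19 (4.80) lay below. Of 7 basal markers, 5 lay below the median gene, Krt5 (5.24) among them, and Krt14 (6.61) and Oxtr (7.12) above.

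With all 6 arrays, none of the 40 genes passed the test, a limma adjusted p under 0.05. Their smallest adjusted p was 0.152 (Gusb), and 5 of the 40 (12.5%) had an unadjusted p under 0.05, as did 14% of all genes. Over all genes that comparison called 2.38%, of which 0.120% of genes were higher in DOX and 2.26% lower. The median difference of the 40 genes was −0.31, beside 0.02 over all genes, and its sign depended on the setting (−0.09 after a second quantile normalization, 0.09 after cyclic loess, 0.11 with array weights and −0.52 with arrays centred on their medians). It was −0.62 without DOX replicate 1 and −0.55 without DOX replicate 3. On DOX replicate 2 alone, 37 of the 40 lay below the control mean, with a median of −1.22, while on DOX replicates 1 and 3 the medians were 0.25 and 0.10.

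Without DOX replicate 2, 11 of the 40 genes rose and 4 fell, against 12.3% of all genes higher and 14.3% lower. Shares of the 40 were 27.5% higher and 10% lower, 37.5% in all beside 26.6% of all genes. Genes with high levels were called more often, 46.8% in the highest 10% step (16.6% higher and 30.2% lower), so the total share of 37.5% is not above that of genes at similar levels. The genes that rose were Gla, Sqstm1, Ctsl, Gabarapl1, Atp6v1c1, Gaa, Atp6v1b2, Map1lc3b, Lamp1, Atp6v1g1 and Lamp2. Those that fell were Gusb, Ctsh, Atp6v1e1 and Tfeb. The median difference was 0.20, beside 0.01 over all genes, and differences ranged from −0.73 to 1.12. In these bulk cultures, fewer cells of a type and less RNA per cell cannot be told apart. Cyclic loess, a smoother that removes level-dependent shifts between arrays, also gave calls with all 6 arrays: Sqstm1 (1.14, limma adjusted p = 0.00686), Gla (0.94, limma adjusted p = 0.0208) and Atp6v1c1 (0.66, limma adjusted p = 0.0273) were higher and Gusb was lower (−0.70, limma adjusted p = 0.0366). A second quantile normalization of all 6 arrays called none of the 40 in limma.

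**Figure D1:**
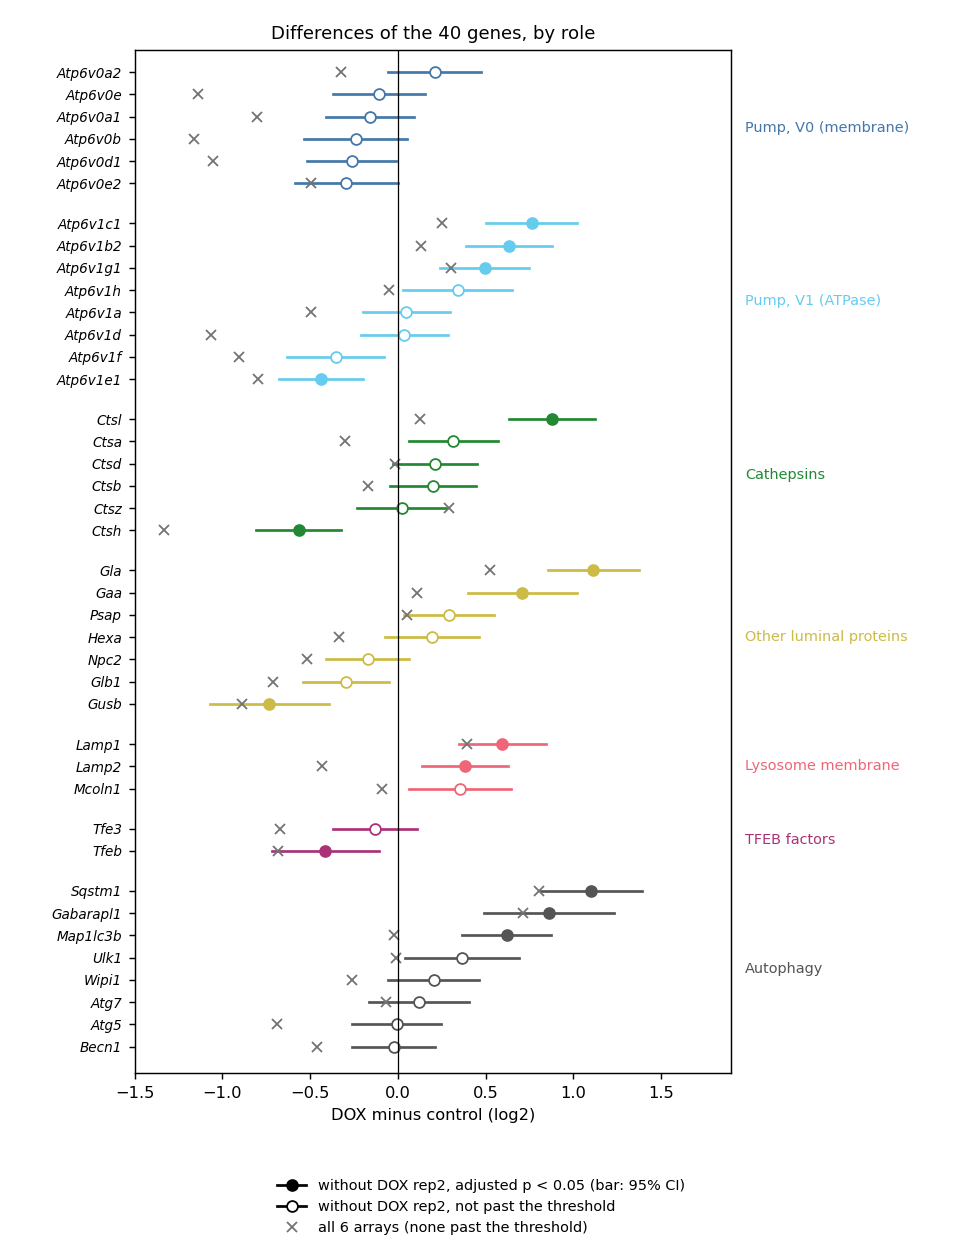
Difference between DOX and control arrays (x axis, log2) for the 40 genes, grouped by role. Circles with 95% confidence intervals leave out DOX replicate 2 and are filled for the 15 genes past the threshold, and grey crosses use all 6 arrays, where none passed. Gla and Sqstm1 lie farthest right at 1.12 and 1.10, and Gusb farthest left at −0.73.

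The promoters of these genes often hold the core letters that TFEB-type factors read. RefSeq promoter windows, 250 bases before to 50 after an annotated start on GRCm38.p6, were at hand for 32 of the 40 genes and were searched for CACGTG, which reads the same on both strands. It was found for 14 of the 32 (43.8%), against 9.5% of 15613 measured genes with a window and 7.15% of all 32851 windows. The longer palindromic form of the CLEAR element, which contains CACGTG within 10 bases, was found in none of the 32 and in 0.525% of measured genes. CACGTG was present in 4 of the 8 genes with a window that rose without DOX replicate 2, in none of the 3 that fell and in 10 of the 21 that were not called. A match is a description of letters and not evidence of binding. No window was at hand for Atp6v0a2, Atp6v1b2, Atp6v1c1, Atp6v1g1, Atp6v1h, Ctsb, Ctsh and Becn1.

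Windows are shown for the genes with CACGTG that differed most in each direction without DOX replicate 2 (Gla and Ctsl upward, Glb1 and Atp6v0d1 downward, the last pair not past the test), and for Lamp1, chosen after its 4 copies were seen. Each runs 5′ to 3′ on the gene's strand from 250 bases before the start through the first 30 bases from it, with CACGTG in capitals.
Gla: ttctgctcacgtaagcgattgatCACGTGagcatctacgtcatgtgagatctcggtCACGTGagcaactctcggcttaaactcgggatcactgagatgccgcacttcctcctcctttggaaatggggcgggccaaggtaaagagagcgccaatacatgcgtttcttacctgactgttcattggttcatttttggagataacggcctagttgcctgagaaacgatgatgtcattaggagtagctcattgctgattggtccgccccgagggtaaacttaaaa
Ctsl: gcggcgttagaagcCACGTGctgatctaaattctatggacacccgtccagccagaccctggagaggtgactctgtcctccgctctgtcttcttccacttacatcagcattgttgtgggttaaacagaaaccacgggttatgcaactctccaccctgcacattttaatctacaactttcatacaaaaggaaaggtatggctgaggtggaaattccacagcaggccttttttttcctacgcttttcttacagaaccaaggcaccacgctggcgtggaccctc
Glb1: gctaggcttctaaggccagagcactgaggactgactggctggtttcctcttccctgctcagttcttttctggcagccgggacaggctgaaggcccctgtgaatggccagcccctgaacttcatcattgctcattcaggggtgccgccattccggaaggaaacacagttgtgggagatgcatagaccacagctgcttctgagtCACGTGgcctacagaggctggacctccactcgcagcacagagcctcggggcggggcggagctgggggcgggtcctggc
Atp6v0d1: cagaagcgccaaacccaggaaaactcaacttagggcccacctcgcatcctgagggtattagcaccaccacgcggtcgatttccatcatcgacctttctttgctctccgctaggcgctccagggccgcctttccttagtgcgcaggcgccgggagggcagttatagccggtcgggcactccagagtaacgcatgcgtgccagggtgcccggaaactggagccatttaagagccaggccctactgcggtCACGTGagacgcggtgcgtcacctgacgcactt
Lamp1: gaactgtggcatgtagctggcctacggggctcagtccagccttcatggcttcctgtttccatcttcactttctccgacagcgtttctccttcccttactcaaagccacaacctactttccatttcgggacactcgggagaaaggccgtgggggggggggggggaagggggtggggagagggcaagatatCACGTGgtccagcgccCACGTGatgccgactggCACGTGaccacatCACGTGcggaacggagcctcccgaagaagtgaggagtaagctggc

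The windows lie at chrX:134600976-134601255 (minus strand) for Gla, chr13:64370491-64370770 (minus) for Ctsl, chr9:114400828-114401107 (plus) for Glb1, chr8:105566035-105566314 (minus) for Atp6v0d1 and chr8:13158911-13159190 (plus) for Lamp1. Positions are of the first base of the motif, with the annotated start as 1 and the base before it as −1. The 4 copies of Lamp1 begin at −61, −45, −28 and −15, and the single copy of Atp6v0d1 spans its start from −3. The copies of Gla begin at −227 and −194, and that of Ctsl at −236. Mcoln1, the calcium channel of the lysosome, held copies at −71 and −45 and did not pass the test.

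Of all genes, 2.38% were called with all arrays and 26.6% without DOX replicate 2. The V0 sector showed no called gene in either comparison. Its members were Atp6v0a1 and Atp6v0a2, forms of the large subunit that anchors the sector, the proteolipid Atp6v0b, the connecting subunit Atp6v0d1, and the small subunits Atp6v0e and Atp6v0e2. Their differences ranged from −0.29 (Atp6v0e2) to 0.21 (Atp6v0a2) without DOX replicate 2, and 5 of 6 were below 0. Atp6v0e2 read 8.09, 8.40 and 8.02 in controls and 7.85, 7.26 and 7.90 in DOX replicates 1, 2 and 3. All 3 DOX values lay below the controls, but the difference without DOX replicate 2 (−0.29, 95% confidence interval −0.59 to 0.0016, limma adjusted p = 0.137) did not pass. Atp6v0e read 10.39, 10.56 and 10.49 in controls and 10.47, 7.27 and 10.27 in DOX arrays. Its difference was −1.14 with all arrays and −0.11 (95% confidence interval −0.37 to 0.16) without DOX replicate 2, and that array alone lay below the controls by more than their range.

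Several V0 genes were among the lowest of the 40 on DOX replicate 2, but genes of other groups lay as low. The V1 gene Atp6v1d was the lowest, at −3.26 from the control mean, and Ctsh lay at −2.86. Relative to the control mean, Atp6v0e lay at −3.21 there, Atp6v0b at −3.00, Atp6v0d1 at −2.64 and Atp6v0a1 at −2.09, where genes in the same 10% step of control levels had a median of −1.59. On DOX replicates 1 and 3 none of these V0 genes was more than 0.44 below the control mean. With all 6 arrays they differed by −0.80 to −1.16, with 95% confidence intervals that all included 0.

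**Figure D2:**
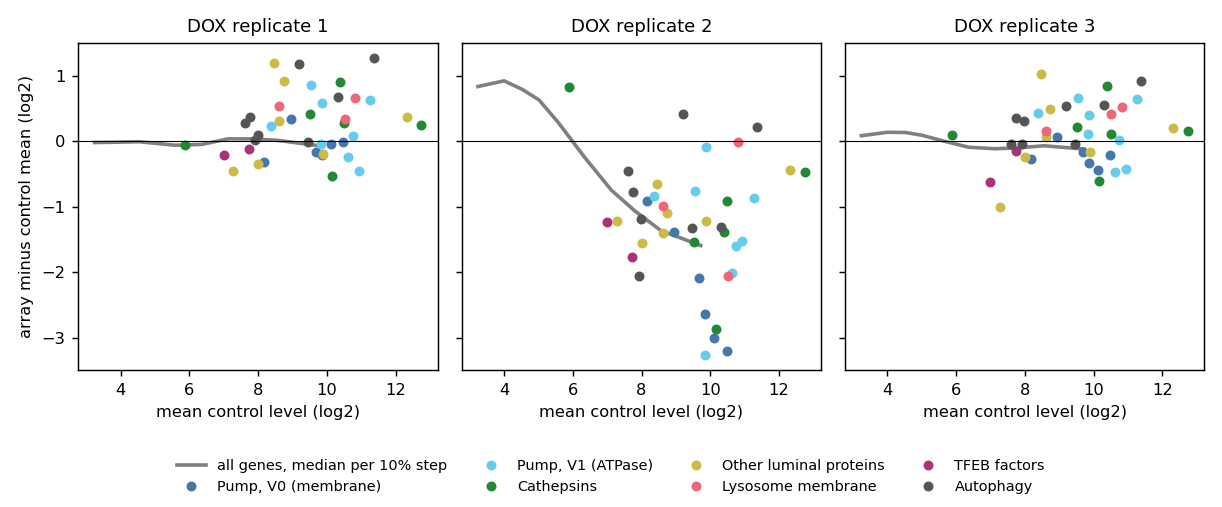
Value on each DOX array minus the control mean (y axis, log2) against the mean control level (x axis, log2) for the 40 genes, 1 panel per DOX array, with the median of all genes in each 10% step as a grey line. On DOX replicate 2 the line falls to −1.59 at high levels and the points follow it down. The V1 gene Atp6v1d lies lowest at −3.26, and 4 V0 genes lie between −3.21 and −2.09, as does Ctsh at −2.86. On the other DOX arrays the line stays near 0.

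Of the 8 genes of the V1 sector, 3 rose (37.5%) and 1 fell (12.5%) without DOX replicate 2, and with all arrays none passed. Without that array, 12.3% of all genes rose and 14.3% fell. Atp6v1c1, which joins the V1 stalks and helps regulate assembly, read 9.64, 9.46 and 9.54 in controls and 10.40, 8.78 and 10.22 in DOX replicates 1, 2 and 3. DOX replicates 1 and 3 lay above every control and DOX replicate 2 below, and the difference without the latter was 0.76 (SE 0.12, limma adjusted p = 7.50e-04), 1.7-fold, and 0.25 with it. Atp6v1b2, a noncatalytic nucleotide-binding subunit, read 11.20, 11.24 and 11.36 in controls and 11.89, 10.40 and 11.91 in DOX arrays. It showed the same order, with a difference of 0.63 (SE 0.11, limma adjusted p = 0.00164) without DOX replicate 2 and 0.13 with all arrays.

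Atp6v1g1, a stalk subunit, read 9.90, 9.82 and 9.89 in controls and 10.46, 9.79 and 10.27 in DOX arrays. DOX replicate 2 lay just below the controls for this gene, and without it the difference was 0.49 (SE 0.11, limma adjusted p = 0.00851), against 0.30 with it. A second probe set of Atp6v1g1, with lower values, differed by 0.06 and did not pass. Atp6v1e1, another stalk subunit, was the V1 gene that fell. It read 10.95, 10.88 and 10.97 in controls and 10.48, 9.41 and 10.51 in DOX arrays, all 3 below every control, with a difference of −0.44 (SE 0.11, limma adjusted p = 0.0125) without DOX replicate 2 and −0.80 with all arrays.

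The other V1 genes did not pass. Atp6v1a, the catalytic subunit, differed by 0.05 (95% confidence interval −0.20 to 0.30) without DOX replicate 2, and Atp6v1d, a subunit of the central rotor, by 0.04 (95% confidence interval −0.21 to 0.28). Atp6v1d read 9.90, 9.79 and 9.84 in controls and 9.81, 6.58 and 9.95 in DOX arrays, so that DOX replicate 2 alone was low. Atp6v1f differed by −0.35 (limma adjusted p = 0.0574) and Atp6v1h by 0.34 (limma adjusted p = 0.101). With all arrays these 4 genes gave −0.50, −1.06, −0.91 and −0.05.

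Of 10 measured pump subunits and accessory proteins outside the 40 genes, 3 fell with all arrays and none rose. Among all genes, 2.26% fell and 0.120% rose in that comparison. Atp6v1b1, the form of the B subunit found in acid-secreting cells, fell by 4.87 with all 6 arrays (SE 0.25, limma adjusted p = 0.00155), and Atp6v1c2 fell by 3.26 (SE 0.24, limma adjusted p = 0.00247). For their widely expressed counterparts Atp6v1b2 and Atp6v1c1 the same comparison gave 0.13 (95% confidence interval −0.88 to 1.15) and 0.25 (95% confidence interval −0.78 to 1.29). Tcirg1, an a subunit known from osteoclasts, fell by 1.38 (SE 0.22, limma adjusted p = 0.0305). Other subunit genes of that list gave small values with all arrays, 0.10 for Atp6v0d2, 0.21 for Atp6v1g3, 0.09 for Atp6v1g2 and 0.03 for Atp6v1e2, and did not pass. These 4 were also named after their values were seen. The rest of the list gave larger values with all arrays, 0.75 for Atp6v0a4, −0.75 for Atp6ap1 and 0.47 for Atp6ap2, and did not pass. Atp6v0a4 lay above every control on all 3 DOX arrays, as did 11.7% of all genes. Without DOX replicate 2, Atp6v1b1, Atp6v1c2 and Tcirg1 fell again and 2 genes rose, the accessory protein gene Atp6ap2 (1.29) and Atp6v0a4 (0.79). Among all genes, 14.3% fell and 12.3% rose there.

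**Figure D3:**
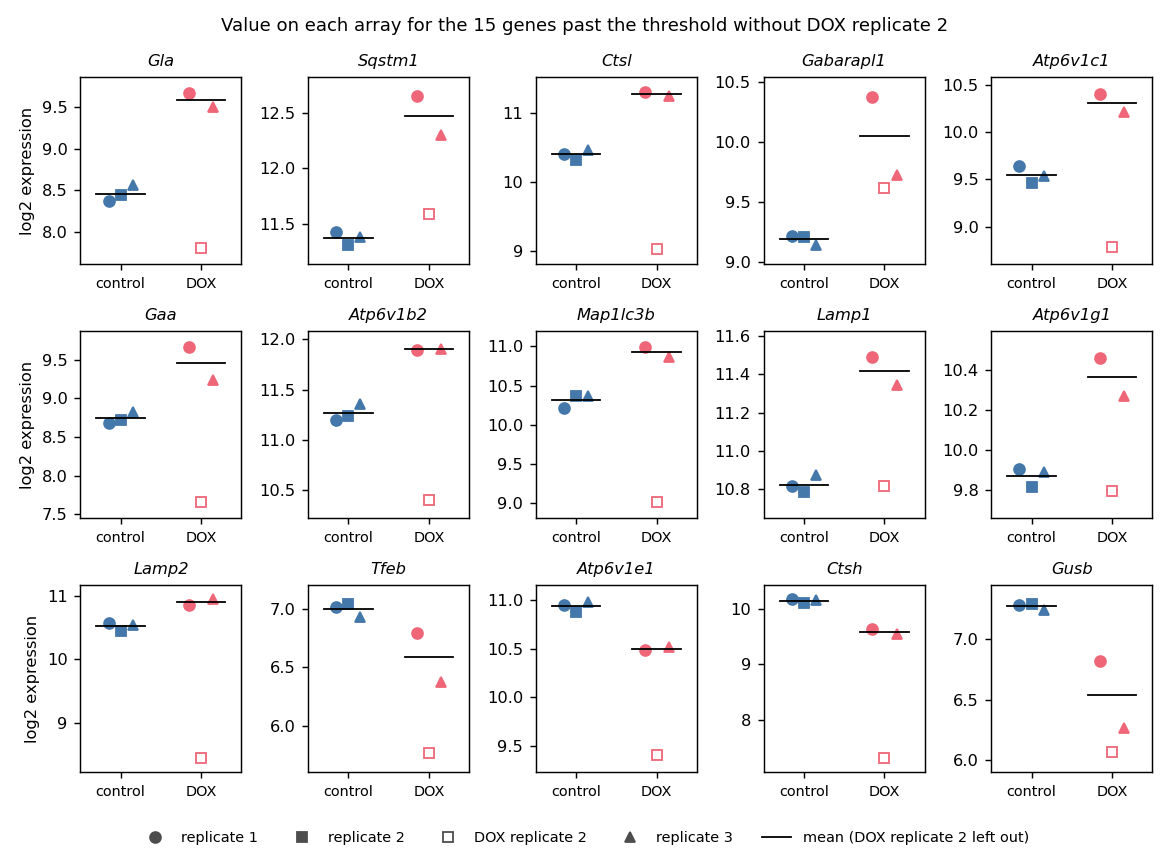
Log2 expression (y axis) on each of the 6 arrays for the 15 genes past the threshold without DOX replicate 2, with marker shape for the replicate, an open square for DOX replicate 2 and a line for each group's mean without it. DOX replicates 1 and 3 lie above every control for the first 11 genes and below for the last 4, and DOX replicate 2 lies above the controls for Sqstm1 and Gabarapl1 and below their mean for the other 13.

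Cathepsins are proteases of the lysosome. Of the 6 genes, 1 rose (16.7%), 1 fell (16.7%) and 4 did not pass without DOX replicate 2. Shares of all genes there were 12.3% higher and 14.3% lower. Ctsl, a cysteine protease that also processes secreted and endocytosed proteins, read 10.41, 10.32 and 10.47 in controls and 11.30, 9.02 and 11.25 in DOX arrays. DOX replicates 1 and 3 were close to each other and above every control, and the difference was 0.88 (SE 0.11, limma adjusted p = 1.86e-04), 1.84-fold, without DOX replicate 2 and 0.13 with it. Ctsh, an aminopeptidase, read 10.20, 10.11 and 10.18 in controls and 9.64, 7.30 and 9.55 in DOX arrays. All 3 DOX values were below every control, and the gene fell by 0.57 (SE 0.11, limma adjusted p = 0.00304) without DOX replicate 2. With all arrays the difference was −1.33.

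Ctsd, the main aspartic protease, read 12.72, 12.78 and 12.76 in controls and 13.01, 12.28 and 12.92 in DOX arrays. Its differences were −0.02 with all arrays and 0.21 (95% confidence interval −0.03 to 0.45, limma adjusted p = 0.187) without DOX replicate 2. Ctsa, which protects other lysosomal enzymes, and Ctsb differed by 0.32 and 0.20 without DOX replicate 2 (limma adjusted p = 0.0671 and 0.222), and by −0.30 and −0.17 with all arrays. Ctsz read 5.83, 5.96 and 5.83 in controls and 5.82, 6.70 and 5.97 in DOX arrays, and differed by 0.02 without DOX replicate 2 and 0.29 with it. It was the one gene of the 40 with a control level below the median gene, and the one hydrolase gene that read higher than control on DOX replicate 2.

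Glycosidases and proteins that handle lipids numbered 7. Without DOX replicate 2, 2 were higher (28.6%), 1 lower (14.3%) and 4 not past the test, beside 12.3% and 14.3% of all genes. Gla, the α-galactosidase whose loss causes Fabry disease, had the largest increase of the 40 genes in that comparison. It read 8.37, 8.45 and 8.57 in controls and 9.66, 7.81 and 9.49 in DOX arrays. DOX replicates 1 and 3 lay about 1 log2 unit above the controls and DOX replicate 2 below them, which gave 1.12 (SE 0.12, limma adjusted p = 5.16e-05), or 2.17-fold, without DOX replicate 2 and 0.53 (95% confidence interval −0.64 to 1.70) with it. Gaa, the acid α-glucosidase that digests glycogen, read 8.68, 8.73 and 8.83 in controls and 9.67, 7.65 and 9.23 in DOX arrays, with a difference of 0.71 (SE 0.14, limma adjusted p = 0.00344) without DOX replicate 2 and 0.11 with it.

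Gusb, the β-glucuronidase often used as a reference gene, fell. It read 7.29, 7.29 and 7.24 in controls and 6.82, 6.06 and 6.26 in DOX replicates 1, 2 and 3. All 3 DOX arrays were below every control, with a difference of −0.89 (SE 0.24, limma adjusted p = 0.152) with all arrays and −0.73 (SE 0.15, limma adjusted p = 0.00467) without DOX replicate 2. Npc2, a cholesterol carrier of the lysosome's interior, read 9.87, 9.89 and 9.90 in controls and 9.70, 8.68 and 9.73 in DOX arrays. The groups did not overlap, but the difference of −0.17 (95% confidence interval −0.41 to 0.06) without DOX replicate 2, or −0.52 with it, did not pass. Psap, the precursor of the saposins, Hexa and Glb1 differed by 0.29, 0.20 and −0.29 without DOX replicate 2, and none passed (limma adjusted p = 0.0878, 0.277 and 0.0733). With all arrays they gave 0.05, −0.34 and −0.71.

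Of the 3 membrane proteins, the 2 LAMP genes rose without DOX replicate 2, as did 12.3% of all genes. Lamp1, which with Lamp2 makes up much of the protein of the lysosome's membrane, read 10.81, 10.78 and 10.87 in controls and 11.49, 10.82 and 11.35 in DOX arrays. DOX replicate 2 lay among the controls, and the difference without it was 0.60 (SE 0.11, limma adjusted p = 0.00251), against 0.39 with it. Lamp2 read 10.57, 10.45 and 10.54 in controls and 10.85, 8.46 and 10.94 in DOX arrays. Its difference changed sign, from −0.43 (95% confidence interval −1.997 to 1.13) with all arrays to 0.38 (SE 0.11, limma adjusted p = 0.0264) without DOX replicate 2. Mcoln1 read 8.58, 8.57 and 8.69 in controls and 9.16, 7.63 and 8.78 in DOX arrays, and neither −0.09 with all arrays nor 0.35 without DOX replicate 2 (limma adjusted p = 0.0739) passed.

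The factor genes themselves did not rise. Tfeb read 7.02, 7.04 and 6.93 in controls and 6.79, 5.77 and 6.37 in DOX arrays, all 3 below every control. Its difference was −0.68 (limma adjusted p = 0.35) with all arrays and −0.41 (SE 0.14, limma adjusted p = 0.0468) without DOX replicate 2. That call was at the threshold and was lost after a second quantile normalization of the 5 arrays (−0.37, limma adjusted p = 0.053). Tfe3 read 7.73, 7.76 and 7.71 in controls and 7.62, 5.98 and 7.58 in DOX arrays, and its difference of −0.13 (95% confidence interval −0.37 to 0.11) without DOX replicate 2, or −0.67 with it, did not pass. The related factor genes Mitf and Tfec differed by 0.29 and 0.18 without DOX replicate 2 (limma adjusted p = 0.118 and 0.329). RNA levels do not show where the factors were in the cell.

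Of the 8 autophagy genes, Sqstm1, Gabarapl1 and Map1lc3b rose (37.5%) without DOX replicate 2 and none fell, beside 12.3% and 14.3% of all genes. With all arrays none of the 8 passed. Sqstm1 encodes p62, a receptor that links tagged cargo to LC3 and is itself degraded by autophagy. It read 11.43, 11.31 and 11.38 in controls and 12.65, 11.59 and 12.30 in DOX arrays, so that all 3 DOX arrays lay above every control. The difference was 0.81 (95% confidence interval 0.11 to 1.51, limma adjusted p = 0.29) with all arrays and 1.10 (SE 0.13, limma adjusted p = 1.16e-04), or 2.15-fold, without DOX replicate 2.

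Gabarapl1, of the GABARAP family that coats the autophagosome, read 9.22, 9.21 and 9.15 in controls and 10.38, 9.62 and 9.73 in DOX arrays. It too lay above every control on all 3 DOX arrays, with differences of 0.72 (limma adjusted p = 0.263) and, without DOX replicate 2, 0.86 (SE 0.17, limma adjusted p = 0.00304). Sqstm1 and Gabarapl1 were the only 2 of the 40 genes wholly above the controls with all arrays, where 11.7% of all genes were, and 11 lay wholly below, where 20.3% of all genes did. Without DOX replicate 2, 20 lay above and 11 below, against 25.4% and 26.2% of all genes. Map1lc3b, which encodes LC3B, read 10.21, 10.36 and 10.36 in controls and 11.00, 9.003 and 10.87 in DOX arrays. Its difference was −0.02 with all arrays and 0.62 (SE 0.12, limma adjusted p = 0.00227) without DOX replicate 2. A second probe set of this gene, with lower values, differed by 0.18 in the latter comparison and did not pass (limma adjusted p = 0.433 over probe sets).

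The remaining autophagy genes were those of the kinase Ulk1, the lipid kinase partner Becn1, the membrane sensor Wipi1, and Atg5 and Atg7, which attach LC3 to lipid. Ulk1 differed by 0.37 (limma adjusted p = 0.0916) and Wipi1 by 0.20 (limma adjusted p = 0.241) without DOX replicate 2. Atg5 read 7.80, 7.98 and 7.96 in controls and 7.94, 5.86 and 7.88 in DOX arrays, and apart from DOX replicate 2 the groups overlapped. Differences were −0.01 (95% confidence interval −0.26 to 0.25) for Atg5, −0.02 (95% confidence interval −0.26 to 0.21) for Becn1 and 0.12 (95% confidence interval −0.17 to 0.41) for Atg7. With all arrays the values were −0.01 for Ulk1, −0.26 for Wipi1, −0.69 for Atg5, −0.46 for Becn1 and −0.07 for Atg7.

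Other genes of the same system were counted from lists chosen by function, also with earlier results of these data known. With all arrays, 4 of 113 fell and none rose, beside 2.26% and 0.120% of all genes. An unadjusted p under 0.05 in limma was found for 20 of the 113 (17.7%), beside 14% of all genes. The 4 were the 3 pump genes above and Deptor, an inhibitor of mTORC1 (−1.30, SE 0.19, limma adjusted p = 0.0238). Without DOX replicate 2, 32 rose (28.3%) and 19 fell (16.8%), beside 12.3% and 14.3% of all genes. In steps 8 to 10 of control levels, the highest, 16.6% to 20.1% of genes were higher and 24.6% to 30.2% lower. Deptor read 8.03, 7.97 and 8.29 in controls and 7.01, 6.65 and 6.72 in DOX arrays, with no overlap.

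Genes of the lysosome's membrane counted 9 higher (56.25%) and 1 lower (6.25%) of 16 without DOX replicate 2, beside 12.3% and 14.3% of all genes. Cd63, a tetraspanin of late endosomes, read 7.80, 7.47 and 7.53 in controls and 9.22, 8.30 and 9.43 in DOX arrays. All 3 DOX arrays were above every control, with 1.38 (limma adjusted p = 0.105) with all arrays and 1.72 (SE 0.13, limma adjusted p = 5.00e-06) without DOX replicate 2. Scarb2, the receptor that carries β-glucocerebrosidase to the lysosome, rose by 1.09 in the latter comparison, and Sort1, a sorting receptor, fell by 1.03. With all arrays they gave 0.71 and −1.48, and neither passed.

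Other lysosomal enzymes were split, with 6 of 27 higher (22.2%) and 7 lower (25.9%) without DOX replicate 2, beside 12.3% and 14.3% of all genes. Asah1, the acid ceramidase, rose by 1.03 and Idua, the α-iduronidase, by 0.94, while Lipa, the acid lipase, fell by 1.39 and Ctsc, a dipeptidyl peptidase, by 1.27. With all arrays these 4 genes gave 0.29, 0.56, −2.11 and −1.92, and none passed. Of 25 genes of TFEB and mTORC1 control, 9 rose (36%) and 5 fell (20%) without DOX replicate 2. Fnip1, a partner of folliculin, rose by 1.08 and Rheb, the GTPase that activates mTORC1, by 1.07, and after Deptor (−1.23) the largest decrease was that of Lamtor1 (−0.71), a subunit of the complex that holds mTORC1 on the lysosome. With all arrays Fnip1, Rheb and Lamtor1 gave 0.44, 0.35 and −1.25 and did not pass. Of 35 other autophagy genes, 6 rose (17.1%) and 3 fell (8.57%) without DOX replicate 2, beside 12.3% and 14.3% of all genes. These calls were led by Vmp1 (0.62) and Pik3r4 (0.54) upward and by Atg4a (−0.86) and Atg101 (−0.60) downward. Genes of the same step differed from one another: in that comparison Map1lc3a, another LC3 gene, fell by 0.45 (limma adjusted p = 0.0264), while Gabarap (−0.11), Gabarapl2 (0.13) and the cargo receptor gene Nbr1 (0.13) did not pass. Rb1cc1, a partner of Ulk1, rose by 0.52, and Atg3 and Atg10, which act in conjugation, by 0.53 and 0.42 (limma adjusted p = 0.012, 0.0101 and 0.0444). These 7 genes were named after their values were seen. With all arrays, none of the 35 passed in limma, and 3 had an unadjusted p under 0.05.

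**Figure D4:**
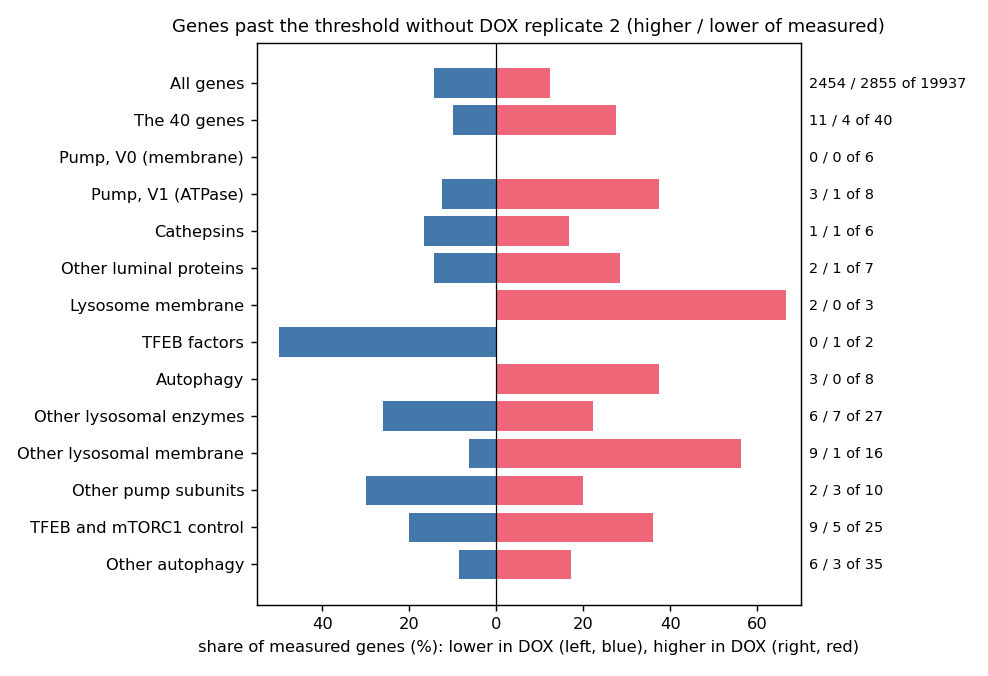
Share of measured genes (x axis, %) past the threshold without DOX replicate 2, higher in DOX to the right and lower to the left, for all genes, the 40 genes, their 7 role groups and 5 lists of other genes of the system, with counts at the right. All genes show 12.3% higher and 14.3% lower, the 40 genes 27.5% and 10%, and each role group holds under 10 genes.

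Macrophages are rich in lysosomes, so their markers are given beside these results. Of 15 macrophage markers, 1 rose (6.67%) and 2 fell (13.3%) without DOX replicate 2, beside 12.3% and 14.3% of all genes. With all arrays none of the 15 passed in limma, and 3 had an unadjusted p under 0.05 (20%, beside 14% of all genes). The one that rose was Cd68 (1.01, limma adjusted p = 1.03e-04), itself a lysosomal membrane protein, and those that fell were Mpeg1 (−1.51) and Cd14 (−1.06). Adgre1 and Csf1r were low, with control means of 3.93 and 5.01, and 13 of the 15 lay below the median gene. The others, Cd14 and Cd68, lay above it, with control means of 9.64 and 7.29. The mean level of the list was 5.16 to 5.202 in controls and 4.98, 5.46 and 5.19 in DOX replicates 1, 2 and 3. The mean of 7 luminal markers was 10.47 to 10.50 in controls and 10.20, 9.27 and 10.12 in DOX arrays. Krt8 (−0.74) and Krt18 (−0.64) fell without DOX replicate 2 (28.6% of the list, beside 14.3% of all genes). Of 7 basal markers, Oxtr fell with all arrays (−1.91, limma adjusted p = 0.018), where 2.26% of all genes fell. Oxtr and Krt14 (−1.06) fell without DOX replicate 2 (28.6% of the list, beside 14.3% of all genes). The basal list mean was 5.54 to 5.67 in controls and 5.13, 5.76 and 5.28 in DOX arrays. Of 6 T and B cell markers, 1 rose without DOX replicate 2 (16.7%, beside 12.3% of all genes). This was Ptprc, found on all leukocytes (0.38, limma adjusted p = 0.0358), with a control mean of 4.48. It lay above every control on all 3 DOX arrays. On DOX replicate 2 it lay 0.80 above the control mean, where genes in its 10% step of control levels had a median of 0.79. The list mean was 4.58 to 4.69 in controls and 4.58, 5.42 and 4.77 in DOX arrays. In steps 1 to 4 from the lowest, the medians on DOX replicate 2 were 0.63 to 0.93. Higher list means of low markers on that array cannot be told apart from this shift. Of 8 fibroblast, 6 adipocyte and 6 endothelial markers, none passed in limma in either comparison, and none had an unadjusted p under 0.05. The part of these markers in the results was not tested.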

How the data were processed

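Log2 expression values were used as deposited. RMA and the affy package are named, without versions, per the submitters' processing notes, and the settings used are not given in the sources used here. RMA usually equalises the distributions of arrays, and DOX replicate 2 differed all the same. Of 34760 probe sets, 21640 had 1 gene symbol in the platform annotation, and 1321 with several and 11799 without a symbol were left out. Where several probe sets read a gene, the one highest on average over the arrays was kept, which gave 19937 genes. Updating symbols through gene identifiers changed 0 names.

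Groups were taken from the sample titles. The test was limma 3.58.1 under R 4.3.3 (two-sided, lmFit and eBayes without covariates), with Benjamini-Hochberg adjustment over all genes and a threshold of 0.05. Depth has no counterpart on arrays, where the number of arrays limits precision. Members and lists were chosen with earlier results of these data known, and lists get counts and medians only. Genes given with every array's value were, by rule, those past the threshold with all arrays, those past it without DOX replicate 2 with a difference of at least 1, the largest and smallest difference of each role group, and 6 genes named whatever their p. The other called members, Cd63 and Deptor were also given this way, chosen after their values were seen. Other pathway genes were those called with all arrays and the 2 largest called differences each way per list. In simulated data of 19937 genes, the test with all arrays recovered 1% of changes of 2-fold and 47% of those of 4-fold. Without DOX replicate 2 it recovered 82% and 97%. False calls in the simulation were 0% with all arrays and 2.19% without DOX replicate 2. Same-numbered control and DOX arrays deviated together with correlations of 0.117, 0.194 and 0.0852, and since 1 is under 0.1 the numbers were not taken as pairs. The DOX deviations were taken from a mean that includes DOX replicate 2, so these correlations cannot settle the pairing. Alternatives covered left-out arrays, the replicate block, filters on low genes, normalization, probe sets and variance settings.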

Additional observations from a re-analysis of the deposited data

How the results depend on the processing

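The calls rest on how DOX replicate 2 is treated. Leaving out each array in turn gave 0 to 11 of the 40 genes higher and 0 to 4 lower, 0 to 32 and 2 to 19 of the other genes of the system, and 2 to 2454 and 61 to 2855 of all genes, with the highest counts without DOX replicate 2. Array weights, which gave that array a weight of 0.0333, called 12 of the 40 higher and 6 lower (29 and 23 of the other genes of the system, 3643 and 3752 of all genes), and cyclic loess called 3 and 1 (8 and 9, 557 and 1197). A second quantile normalization of the 5 remaining arrays, chosen after seeing the data, called 11 and 4 (33 and 20, 2360 and 3408). There 14 of the 15 genes called without DOX replicate 2 stayed called, Tfeb was lost and Atp6v1f (limma adjusted p = 0.0381) was gained. A second quantile normalization of all 6 arrays called 0 of the 40 genes in either direction in limma, 2 of the other genes of the system and 185 of all genes higher, and centring arrays on their medians called 7 of all genes higher. The share of calls that were higher was 5.06% with all arrays, 46.2% without DOX replicate 2, 49.3% with weights, 40.9% in the added setting, 31.8% with loess, 22.8% with quantile normalization and 1.42% with centring, which moved the median of all genes to −0.18.

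Differences that were below 0 with all arrays and turned above 0 were, with array weights, Atp6v0a2 0.10, Atp6v1a 0.0038, Atp6v1d 0.046, Atp6v1h 0.36, Ctsa 0.25, Ctsb 0.14, Ctsd 0.18, Hexa 0.11, Lamp2 0.38, Mcoln1 0.22, Map1lc3b 0.57, Wipi1 0.27, Ulk1 0.34 and Atg7 0.028. With cyclic loess they were Atp6v0a2 0.090, Atp6v1h 0.35, Ctsa 0.11, Ctsb 0.22, Ctsd 0.26, Hexa 0.063, Mcoln1 0.31, Map1lc3b 0.37, Wipi1 0.089, Ulk1 0.33 and Atg7 0.25. With quantile normalization of all arrays they were Atp6v1h 0.19, Ctsb 0.049, Mcoln1 0.15, Map1lc3b 0.27, Ulk1 0.17 and Atg7 0.16. In the added setting they were Atp6v0a2 0.17, Atp6v1a 0.048, Atp6v1h 0.31, Ctsa 0.27, Ctsb 0.19, Ctsd 0.14, Hexa 0.16, Lamp2 0.39, Mcoln1 0.32, Map1lc3b 0.64, Wipi1 0.20, Ulk1 0.37, Atg5 0.0030 and Atg7 0.13. Centring turned Atp6v1b2 (−0.070), Ctsl (−0.077), Gaa (−0.10) and Psap (−0.15) below 0. Leaving out each array in turn gave −0.66 to 0.21 for Atp6v0a2, −0.79 to 0.0495 for Atp6v1a, −0.12 to 0.64 for Atp6v1b2, −0.047 to 0.76 for Atp6v1c1, −1.65 to 0.036 for Atp6v1d, −0.30 to 0.34 for Atp6v1h, −0.66 to 0.32 for Ctsa, −0.39 to 0.20 for Ctsb, −0.15 to 0.21 for Ctsd, −0.26 to 0.88 for Ctsl, −0.67 to 0.20 for Hexa, −0.30 to 0.71 for Gaa, −0.11 to 0.29 for Psap, −0.86 to 0.38 for Lamp2, −0.41 to 0.35 for Mcoln1, −0.38 to 0.62 for Map1lc3b, −0.55 to 0.20 for Wipi1, −0.20 to 0.37 for Ulk1 and −0.24 to 0.12 for Atg7. The cause of these turns was not tested.

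With all 6 arrays, the replicate number as a block called 0 of the 40 genes higher and 0 lower in limma. It called 2 of the other genes of the system lower, and 3 and 159 of all genes. None of the 40 was called with all arrays without the block either, so there was no call to lose. The block was not tried without DOX replicate 2. With 3 arrays a group, and 2 DOX arrays where calls were made, the number of arrays limits what can be told.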
